A study of Mus musculus with 6 samples.

Results

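The genes described here are 47 mouse genes of the lysosome, chosen by symbol for their known roles: proteases, glycosidases, other hydrolases, the small proteins that assist them, membrane proteins, the factor gene Tfeb and the subunits of the proton pump. Of these, 45 were among the 10128 genes measured, and the protease gene Ctsh and the glycosidase gene Naglu were not analysed here. The libraries hold messenger RNA of mouse ES cells, the pluripotent cells of the early embryo kept in culture: 3 libraries come from cells that lack Tex19.1 (Tex19.1-/-) and 3 from cells that keep 1 copy of it (Tex19.1+/-). All 6 libraries come from descendants of the E14Tg2a line on a 129/Ola background, at passages 12 to 18, grown on gelatin in medium with foetal calf serum and leukaemia inhibitory factor. The cells with which the Tex19.1-/- cells were compared are thus themselves heterozygous, and the labels do not say whether the libraries of a genotype came from separate clones or cultures, so the p-values measure only the spread between these libraries, which may be technical. In a bulk culture, a lower transcript level in every cell and a smaller number of cells that express the gene cannot be told apart.

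Lysosomes are acidic organelles in which proteins, glycans, lipids and nucleic acids delivered by endocytosis and autophagy are broken down. The proton pump, or V-ATPase, acidifies the lumen; soluble hydrolases are tagged with mannose 6-phosphate in the Golgi and sorted there by receptors; heavily glycosylated proteins line the limiting membrane. TFEB and its relatives of the MiT family bind short motifs in the promoters of many of these genes and can raise their transcription together, under the control of the mTORC1 kinase, which is recruited to the lysosomal surface by Rag GTPases. Inherited loss of single enzymes, activators or membrane proteins causes the lysosomal storage diseases.

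Tex19.1 itself had the lowest log2 fold change of all genes in the authors' deposited table, -6.92, or 0.828% of the heterozygous level. The header of the table does not name the direction of its fold changes, and this gene was used to read them as Tex19.1-/- over Tex19.1+/-. All fold changes below are on the log2 scale, and a gene is called at an adjusted p under 0.05 over all genes of the table. Among all genes 51.7% were called there, 25.2% higher and 26.5% lower in Tex19.1-/- cells, so a call by itself is common. Values of single libraries were not analysed here, so depth is unknown, no SD stands beside the values, and whether the genotypes overlap could not be seen.

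Most of the soluble lysosomal enzymes were lower in Tex19.1-/- cells, whereas most subunits of the proton pump were not called. Of the 45 measured genes, 25 were called lower, 2 were called higher and 18 were not called, in the authors' deposited table. The lower calls amount to 55.6% of the lysosomal genes, beside 26.5% of all genes, and the higher calls to 4.44%, beside 25.2% of all genes. The median fold change of the 45 genes was -0.10, against 0.0031 over all genes. By role, 17 of the 22 hydrolase genes were lower and 1 was higher, with a median of -0.28, while 3 of the 12 pump genes were lower and none was higher, with a median of -0.00134. Most changes were small: Ctsc was the single gene of the 45 that changed by at least 2-fold, while 17 were called lower and 1 higher with a log2 fold change of at least 0.25 in size, beside 13.7% and 8.06% of all genes. The genes were chosen with earlier results of these data known, and the difference between the roles was not tested. Of 21 listed markers of the primitive and visceral endoderm, the latter rich in lysosomes, 14 were measured. Of these, 12 (85.7%) were lower, beside 26.5% of all genes, and their median fold change was -1.91. The markers Lrp2, at -0.08, and Apoe, at -0.02, were not called. The part of such cells in the lysosomal values was not tested.

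**Figure D1:**
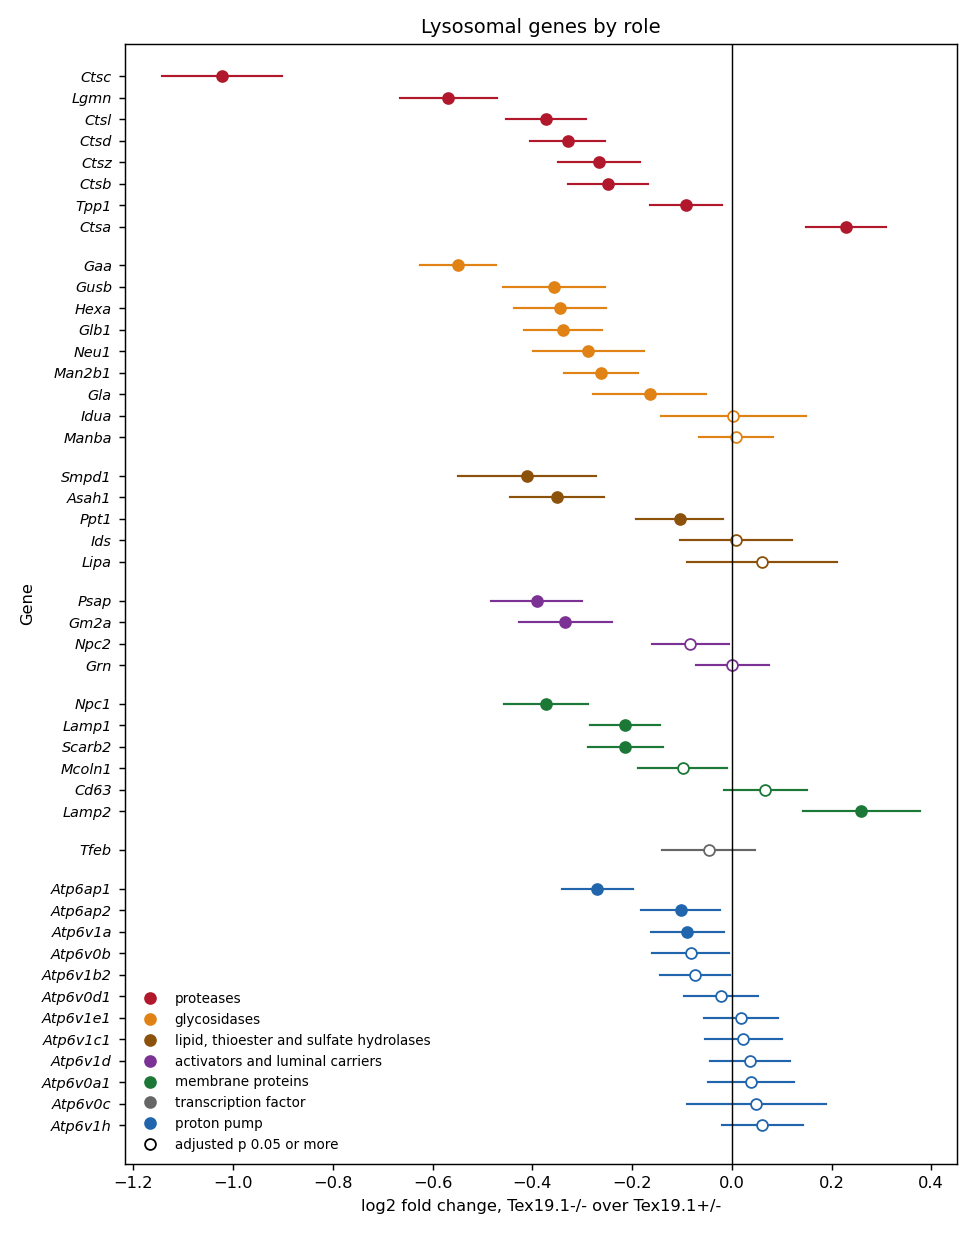
log2 fold change (Tex19.1-/- over Tex19.1+/-) of each of the 45 measured lysosomal genes, grouped by role; points are the values of the authors' deposited table, filled where the adjusted p is under 0.05, and bars are 95% intervals implied by the p-values under a normal approximation. Proteases and glycosidases lie mostly left of 0, down to -1.02 for Ctsc, whereas 9 of the 12 pump genes have open points between -0.08 and 0.06.

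Proteases included the gene with the largest fall of the set, Ctsc. Of 8 measured protease genes 7 were lower and 1 was higher in Tex19.1-/- cells, with a median of -0.30. These calls are 87.5% and 12.5%, beside 26.5% and 25.2% of all genes. Ctsc encodes the dipeptidyl peptidase that activates the serine proteases of immune cell granules and lies on chromosome 7 from 88278085 to 88310888 (GRCm38, plus strand, ENSMUSG00000030560). Its fold change in the authors' deposited table was -1.02 (adjusted p = 2.01e-60), which is 49.3% of the heterozygous level, at a mean of 12.3 CPM. Among the 10128 genes it ranked 105 from the lowest fold change. Lgmn encodes legumain, which cuts after asparagine and processes several cathepsins, and lies on chromosome 12 from 102394084 to 102439813 (GRCm38, minus strand). It stood at -0.57 in the authors' deposited table (adjusted p = 7.41e-29), or 67.4% of the heterozygous level.

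The other protease genes that were lower fell by less. In the authors' deposited table the cysteine protease gene Ctsl was at -0.37 (adjusted p = 7.46e-19), with a mean of 278 CPM, and the aspartic protease gene Ctsd at -0.33 (adjusted p = 8.50e-17), with 190 CPM. The cysteine carboxypeptidase gene Ctsz was at -0.27 and Ctsb, another cysteine protease gene, at -0.25 there, which are 83.2% and 84.2% of the heterozygous level. Ctsb overlaps the squalene synthase gene Fdft1 on the opposite strand, which was at 0.25 in the authors' deposited table, and the strand setting of the counting is not given in the sources used here. Tpp1, which encodes a tripeptidyl peptidase and whose loss causes a neuronal storage disease, changed least, at -0.09 in the authors' deposited table (adjusted p = 0.0253). Its call was lost at an adjusted p under 0.01.

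Ctsa was the 1 protease gene that rose. It encodes a serine carboxypeptidase, also called protective protein because it shields β-galactosidase and the sialidase NEU1 in a common complex, and lies on chromosome 2 from 164832873 to 164841032 (GRCm38, plus strand). Its fold change in the authors' deposited table was 0.23 (adjusted p = 1.53e-07), or 117% of the heterozygous level, at a mean of 86.2 CPM. The genes of its complex partners went the other way: Glb1, for β-galactosidase, was at -0.34 and Neu1 at -0.29 in the authors' deposited table. Part of Ctsa overlaps the lipid transfer protein gene Pltp on the opposite strand, which was at -0.31 in the authors' deposited table. Glb1 overlaps Tmppe on its own strand, so reads of their shared stretch cannot be told apart, and Tmppe was at -0.41 there. Ctsd likewise overlaps the annotated gene Gm49369 on its own strand, which was not among the genes measured.

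Glycosidases were lower in 7 of 9 cases, or 77.8%, and none was higher, beside 26.5% and 25.2% of all genes. Their median was -0.29. Gaa, which encodes the acid α-glucosidase that degrades glycogen and is deficient in Pompe disease, had the largest fall among them. It lies on chromosome 11 from 119267887 to 119285454 (GRCm38, plus strand) and was at -0.55 in the authors' deposited table (adjusted p = 1.02e-42), or 68.3% of the heterozygous level. The genes next in order lay close together: the β-glucuronidase gene Gusb at -0.36, the hexosaminidase α-subunit gene Hexa, mutated in Tay-Sachs disease, at -0.34, Glb1 at -0.34 and the sialidase gene Neu1 at -0.29 in the authors' deposited table. The α-mannosidase gene Man2b1 was at -0.26 and the α-galactosidase gene Gla, the gene of Fabry disease, at -0.16 in the authors' deposited table. The adjusted p of Gla, 0.0105 there, missed a threshold of 0.01. The other two glycosidase genes were not called. Manba, for β-mannosidase, was at 0.0083 with an implied 95% interval from -0.07 to 0.08, and Idua, for α-L-iduronidase, at 0.0026 with an interval from -0.14 to 0.15, around the values of the authors' deposited table.

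The promoters of the genes with the smallest p-values are shown because MiT factors bind the E-box CACGTG, a palindrome that reads the same on both strands, and the longer element that TFEB prefers contains TCACGTGA. The windows run from 250 bases before to 50 bases after an annotated start (RefSeq, GRCm38.p6), 5′ to 3′ on the gene's strand, with each CACGTG in capitals. Every window of the 3 such genes among those lower, and of the 1 among those higher in Tex19.1-/- cells, is given: Ctsc at chr7:88277835-88278134 (plus strand), Gaa at chr11:119267713-119268012 (plus strand), Lgmn at chr12:102439679-102439978 (outer start, at the 5′ end of the gene) and chr12:102439043-102439342 (inner start, minus strand both), and Ctsa at chr2:164832622-164832921 (outer start) and chr2:164833523-164833822 (inner start, plus strand both).
Ctsc: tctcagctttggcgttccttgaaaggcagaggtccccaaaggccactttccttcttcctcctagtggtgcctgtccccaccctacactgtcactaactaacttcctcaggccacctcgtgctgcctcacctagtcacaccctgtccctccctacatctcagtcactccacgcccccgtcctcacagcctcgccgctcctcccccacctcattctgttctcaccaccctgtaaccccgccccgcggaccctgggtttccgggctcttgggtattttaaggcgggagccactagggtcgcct
Gaa: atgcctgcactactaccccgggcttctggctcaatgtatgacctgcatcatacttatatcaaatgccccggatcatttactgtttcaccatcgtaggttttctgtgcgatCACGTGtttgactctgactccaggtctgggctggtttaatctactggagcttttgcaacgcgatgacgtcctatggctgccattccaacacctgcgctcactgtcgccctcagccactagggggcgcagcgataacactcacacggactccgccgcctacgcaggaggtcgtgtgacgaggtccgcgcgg
Lgmn outer start: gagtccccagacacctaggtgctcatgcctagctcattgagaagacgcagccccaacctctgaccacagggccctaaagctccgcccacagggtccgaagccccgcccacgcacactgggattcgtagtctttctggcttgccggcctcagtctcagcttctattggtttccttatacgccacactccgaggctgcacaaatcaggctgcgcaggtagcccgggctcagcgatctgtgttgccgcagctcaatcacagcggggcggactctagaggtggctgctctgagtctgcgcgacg
Lgmn inner start: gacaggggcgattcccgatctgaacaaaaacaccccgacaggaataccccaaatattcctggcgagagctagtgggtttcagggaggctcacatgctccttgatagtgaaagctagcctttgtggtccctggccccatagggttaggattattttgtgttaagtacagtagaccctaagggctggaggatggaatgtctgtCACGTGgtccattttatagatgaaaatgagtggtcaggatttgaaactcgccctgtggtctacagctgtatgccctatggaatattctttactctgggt
Ctsa outer start: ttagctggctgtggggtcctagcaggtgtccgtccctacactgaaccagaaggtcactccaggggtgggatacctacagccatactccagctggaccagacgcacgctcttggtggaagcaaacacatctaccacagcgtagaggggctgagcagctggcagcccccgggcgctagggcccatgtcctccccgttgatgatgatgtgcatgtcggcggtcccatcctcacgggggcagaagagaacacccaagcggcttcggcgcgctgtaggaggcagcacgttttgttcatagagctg
Ctsa inner start: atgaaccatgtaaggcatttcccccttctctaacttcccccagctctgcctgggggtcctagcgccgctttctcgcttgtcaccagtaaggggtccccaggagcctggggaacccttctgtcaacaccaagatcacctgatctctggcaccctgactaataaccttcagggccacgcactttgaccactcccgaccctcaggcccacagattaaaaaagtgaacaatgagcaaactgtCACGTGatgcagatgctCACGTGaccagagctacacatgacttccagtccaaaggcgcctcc
The Ctsc window holds no CACGTG. Neither do the windows at the outer starts of Lgmn and Ctsa, which lie at the 5′ ends of these genes. The Gaa window holds 1, its first base 140 bases before the start. At the inner starts, which lie within the genes, the Lgmn window holds 1, its first base 49 bases before the start, and the Ctsa window holds 2, both within TCACGTGA. Which start the cells use was not tested.

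Windows were at hand for 40 of the 47 genes. The letters CACGTG were found in at least 1 window of 13 of these 40, or 32.5%, beside 12.7% of the 7640 measured genes with a window, and the letters TCACGTGA in 6, or 15.0%, beside 2.5%. By call, CACGTG was found for 8 of the 22 genes that were lower, 1 of the 2 that were higher and 3 of the 15 that were not called; the other was Naglu, whose expression was not analysed here. The extended form was found for Ctsd, Gla and Atp6v1a among the genes that were lower, for Ctsa, and for Atp6v0d1 and Mcoln1 among those not called. Matches are a description of these letters and say nothing of whether a factor binds there.

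Among the enzymes that act on lipids, thioesters and sulfates, the 2 sphingolipid hydrolases had the largest falls. Smpd1, for acid sphingomyelinase, was at -0.41 (adjusted p = 3.90e-08) and Asah1, for acid ceramidase, at -0.35 in the authors' deposited table (adjusted p = 2.50e-12). They cut successive steps of sphingomyelin breakdown. Ppt1, which removes palmitate from proteins, was at -0.10 there (adjusted p = 0.0387), a call lost at an adjusted p under 0.01. The iduronate sulfatase gene Ids, at 0.0082, and the acid lipase gene Lipa, at 0.06, were not called in the authors' deposited table. Smpd1 and Lipa are the 2 least expressed of the 5, with means of 8.75 and 7.27 CPM. On opposite strands, Ppt1 overlaps Cap1, at 0.21, Idua overlaps Dgkq, at 0.12, and Ctsz overlaps Nelfcd, at 0.03 in the authors' deposited table.

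Activators and luminal carriers were split: of 4 genes 2 were lower and 2 were not called, with a median of -0.21. Psap, the precursor of the saposins, was at -0.39 (adjusted p = 3.51e-16) and Gm2a, whose product lifts gangliosides out of the membrane for the hexosaminidase encoded in part by Hexa, at -0.33 in the authors' deposited table (adjusted p = 1.66e-11). Psap is among the most abundant genes of the set, with a mean of 164 CPM. Grn, for progranulin, a lysosomal protein with many granulin repeats, was at 0.00051 in the authors' deposited table, with an implied 95% interval from -0.07 to 0.07. The 20 measured genes nearest to Grn on chromosome 11 had a median of 0.13, and relative to them Grn was called lower, at -0.13 (adjusted p = 0.00119). Npc2, the soluble carrier that hands cholesterol to NPC1, was at -0.08 in the authors' deposited table and missed the threshold (adjusted p = 0.0634).

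Membrane proteins went both ways. Of 6 measured genes 3 were lower, 1 was higher and 2 were not called, with a median of -0.16. Npc1, the membrane protein that exports cholesterol and is mutated in Niemann-Pick disease type C, had the largest fall, -0.37 in the authors' deposited table (adjusted p = 8.06e-17). Lamp1 and Scarb2, the carrier of glucocerebrosidase to the lysosome, were both at -0.21 in the authors' deposited table, which is 86.2% of the heterozygous level for each. Lamp1 overlaps Grtp1 on the opposite strand, which was at -0.34 there. Lamp2, the related membrane glycoprotein needed for autophagosome fusion and chaperone-mediated autophagy, was higher, at 0.26 in the authors' deposited table (adjusted p = 5.14e-05), or 120% of the heterozygous level. It lies on the X chromosome from 38401357 to 38456454 (GRCm38, minus strand). The tetraspanin gene Cd63 was at 0.07 (adjusted p = 0.175) and the cation channel gene Mcoln1 at -0.10 in the authors' deposited table (adjusted p = 0.0557), neither past the threshold. Cd63 has an annotated pseudogene, so its reads may have been shared. With a log2 fold change of at least 0.25 also required, Npc1 was the 1 membrane protein gene called lower, and Lamp2 lost its call under Bonferroni adjustment.

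Most subunits of the proton pump, which is built of a catalytic V1 and a membrane V0 sector, were not called. None of the 4 genes of the membrane sector (V0) was called, 1 of the 6 genes of the catalytic sector (V1) was called lower, and both accessory subunit genes were called lower. Atp6ap1, whose product helps to assemble the pump, was at -0.27 in the authors' deposited table (adjusted p = 2.15e-12), and Atp6ap2, for the accessory protein also known as the prorenin receptor, at -0.10 (adjusted p = 0.0246). In the catalytic sector the A subunit gene Atp6v1a was at -0.09 (adjusted p = 0.0333) and the B subunit gene Atp6v1b2 at -0.07 in the authors' deposited table (adjusted p = 0.0712). The stalk and regulatory subunit genes lay nearer to 0 there, Atp6v1e1 at 0.02, Atp6v1c1 at 0.02, Atp6v1d at 0.04 and Atp6v1h at 0.06. In the membrane sector Atp6v0b was at -0.08 (adjusted p = 0.0668), Atp6v0d1 at -0.02, Atp6v0a1 at 0.04 and Atp6v0c, for the main subunit of the proton-carrying ring, at 0.05 in the authors' deposited table. Atp6v0c had the lowest mean of the 12 pump genes, 9.48 CPM, and an implied 95% interval from -0.09 to 0.19. The annotation holds 2 processed pseudogenes of Atp6v0c, so reads may have been shared with them.

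The 95% intervals implied for the 9 pump genes that were not called lay between -0.16 and 0.19, so a change as large as the -0.37 of Ctsl or Npc1 is outside every one of them. The number of pump genes called lower depended on the setting: it was 1, Atp6ap1, at an adjusted p under 0.01, under Bonferroni adjustment and with a log2 fold change of at least 0.25 required, and 5 after subtracting either a trend on GC content and length or the median of the nearest genes. Of all genes tested, 21.8%, 14.2%, 13.7%, 26.2% and 26.6% were called lower in these settings, in that order. Relative to the nearest genes, Atp6v0d1, Atp6v1c1 and Atp6v1h also changed sign without passing the threshold. Atp6v0a1 lies among genes of chromosome 11 with a median of 0.19 and turned to -0.16 (adjusted p = 0.00124) relative to them.

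Tfeb was not called. Its fold change was -0.05 in the authors' deposited table (adjusted p = 0.426), with an implied 95% interval from -0.14 to 0.05 and a mean of 48.5 CPM. The MiT family gene Tfe3 was higher there, at 0.23 (adjusted p = 5.25e-10), and so was Mitf, named after its value was seen, at 0.21 (adjusted p = 0.00159). Of the 22 measured genes of MiT factors and lysosomal nutrient sensing, 7 were higher and 4 lower. These are 31.8% and 18.2%, beside 25.2% and 26.5% of all genes, and the median of the 22 was 0.04. The Rag GTPase genes Rragd, at 0.94 (adjusted p = 8.43e-63), and Rragb, at 0.65 (adjusted p = 1.12e-33), had the largest rises among them in the authors' deposited table. Tsc1, for a subunit of the complex that restrains mTORC1, was at -0.18 in the authors' deposited table (adjusted p = 0.000148). Rragd was at 192% and Rragb at 157% of the heterozygous level.

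**Figure D2:**
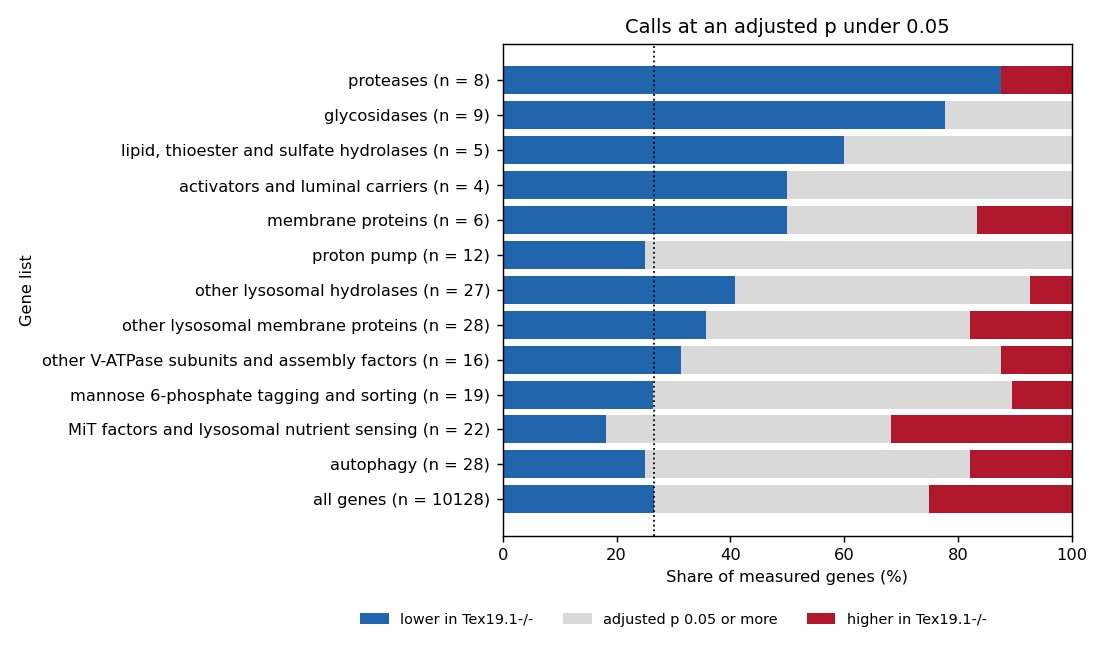
Share of measured genes called lower (blue), not called (grey) or called higher (red) in Tex19.1-/- cells at an adjusted p under 0.05, for the lysosomal roles, 6 further lists of the pathway and all genes; the dotted line marks the 26.5% of all genes that were lower. Proteases (87.5%) and glycosidases (77.8%) reach furthest to the right in blue, and the proton pump (25.0%) stays at the line.

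Genes of the pathway beyond the 47, listed from textbook roles with earlier results of these data known, were counted in the same way. Among all genes 26.5% were lower and 25.2% higher. Of 27 measured other hydrolase genes 11 were lower and 2 higher, 40.7% and 7.41%, with a median of -0.09. Acp5, the tartrate-resistant acid phosphatase, was at -1.05, the hyaluronidase gene Hyal1 at -0.60, the fucosidase gene Fuca1 at -0.39 and Naaa, for an acid amidase, at 0.59 in the authors' deposited table. Of 28 other lysosomal membrane protein genes 10 were lower and 5 higher, 35.7% and 17.9%, with a median of -0.05. Among those with the smallest p-values were Slc29a3, a nucleoside transporter, at -0.91, Laptm5 at -0.77 and Laptm4b at 0.42 in the authors' deposited table.

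Among 16 further pump subunits and assembly factors 5 were lower and 2 higher, or 31.25% and 12.5%, beside 26.5% and 25.2% of all genes. The median of the 16 was -0.05. The genes with the smallest p-values encode alternative membrane-sector subunits: Atp6v0a2 at -0.21, Tcirg1 at -0.26 and Atp6v0e2 at -0.27, followed by Ncoa7 at -0.15, in the authors' deposited table. Of 19 genes that tag hydrolases with mannose 6-phosphate or sort them, 5 were lower and 2 higher, with a median of -0.02. The lower calls, 26.3%, lay near the 26.5% of all genes, and the higher calls, 10.5%, below the 25.2%. None of the 19 was called with a fold change of at least 0.25 in size. In the authors' deposited table the adaptor gene Ap1s1 was at -0.247 and the gene Nagpa, whose enzyme uncovers the tag, at -0.18. The receptor gene M6pr was at -0.11 and the adaptor gene Gga2 at 0.11 there. Of 28 autophagy genes 7 were lower and 5 higher, with a median of -0.01. Their lower calls, 25.0%, also lay near the 26.5% of all genes, and their higher calls, 17.9%, below the 25.2%. Gabarapl1, at 0.63, and Gabarapl2, at -0.31, encode related proteins of the autophagosome membrane and went opposite ways in the authors' deposited table, beside Becn1 at 0.27 and Atg14 at -0.32.

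Genes called lower were found across the range of expression. The 25 genes called lower had means from 8.75 CPM for Smpd1 to 433 CPM for Lamp1. Divided by the length of all annotated exons, which allows genes to be compared with each other, the levels ranged from 162 CPM per kilobase for Lamp1 to 1.07 CPM per kilobase for Lipa. Lamp1 was followed by Ctsd at 80.8, Psap at 59.9, the pump gene Atp6v0d1 at 56.4 and Ctsl at 42.9 CPM per kilobase. Thus 4 of the 5 genes with the highest level per length were called lower. Near the lower end, Ctsc and Smpd1 were called lower, at 2.13 and 2.62 CPM per kilobase. Atp6v0c at 2.80, Idua at 1.99 and Lipa, also near that end, were not called. Annotated exon length can exceed that of the transcripts in these cells, so the order is approximate.

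**Figure D3:**
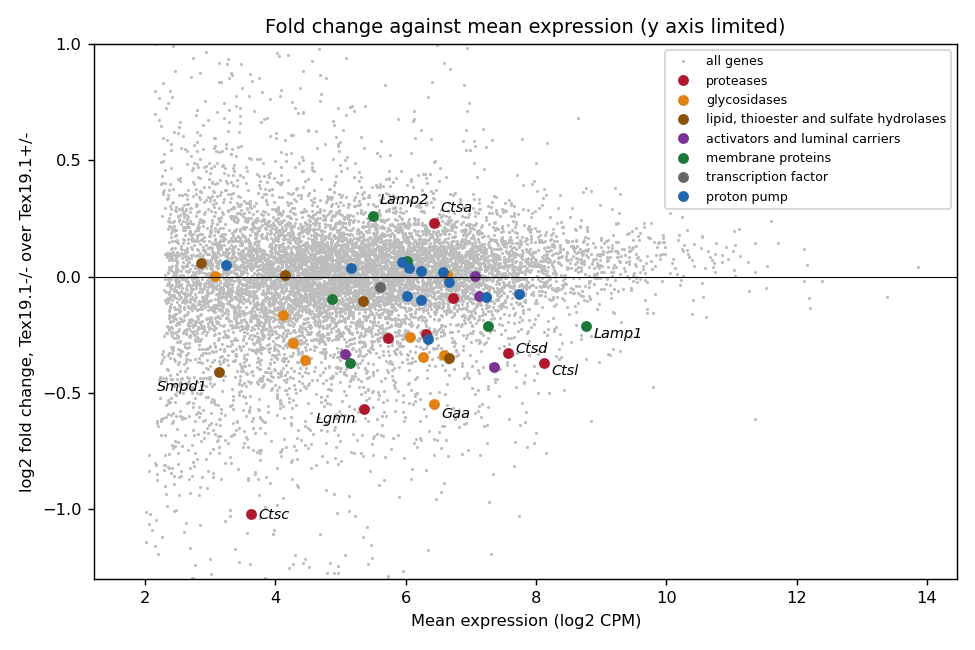
log2 fold change (Tex19.1-/- over Tex19.1+/-) against mean expression in log2 CPM for all 10128 genes (grey) and the 45 lysosomal genes (coloured by role); the vertical axis is limited, so genes with larger changes are not shown. Lysosomal genes below 0 are spread over the range of expression, from Smpd1 at 8.75 CPM to Lamp1 at 433 CPM.

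Position on the chromosomes was set beside each value, because some chromosomes differed as a whole: on chromosome 11 42.0% and on the X chromosome 38.4% of the measured genes were higher in Tex19.1-/- cells, and on chromosome 14 50.4% were lower. The X chromosome carries 5 of the 45 genes, among them Lamp2, whose neighbours had a median of 0.03. For each gene the median fold change of the 20 nearest measured genes was taken. The fold changes of 36 of the 45 lysosomal genes, 80.0%, were below that of their neighbours, beside 49.9% over all genes with a position. Their median relative to the neighbours was -0.16, and that of the 22 hydrolases was -0.28, the same as without the subtraction. Neighbours of the 3 genes with the largest falls were near 0: -0.01 for Ctsc, 0.0076 for Lgmn and 0.0039 for Gaa. With the subtraction 28 of the 45 genes were lower and 3 higher, beside 26.6% and 25.0% of all genes with a position.

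**Figure D4:**
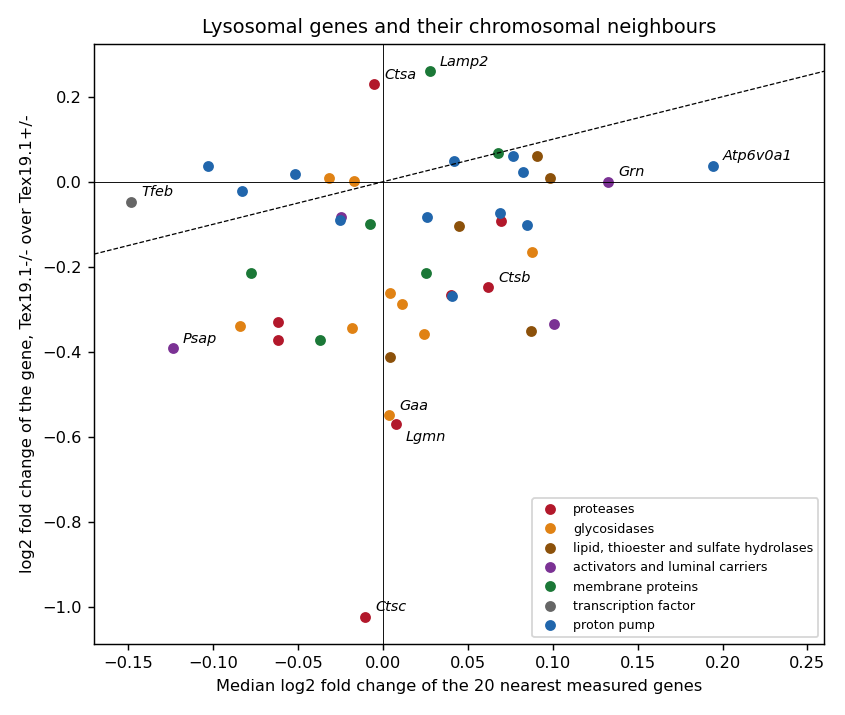
Fold change (log2, Tex19.1-/- over Tex19.1+/-) of each of the 45 lysosomal genes against the median fold change of its 20 nearest measured genes; the axes have different scales and the dashed line marks equality. Points below the line (36 of 45) are genes lower than their neighbours; Ctsc, Lgmn and Gaa lie far below it with neighbours near 0, and Grn and Atp6v0a1 have neighbours at 0.13 and 0.19.

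Markers of other cell types were read beside these results. Of 21 listed genes of the primitive and visceral endoderm 14 were measured, with a median of -1.91. Of the 14, 12 (85.7%) were lower and none was higher, beside 26.5% and 25.2% of all genes. Their fold changes ran from -2.93 for the endocytic receptor gene Cubn to -0.02 for Apoe in the authors' deposited table. Lrp2, at -0.08, and Apoe were not called. The other 7 listed genes, among them Sox17, Foxa2, Afp and Ttr, were not analysed here. Of 8 macrophage markers 1 was measured, Cd68, itself a lysosomal membrane protein, at -0.87 in the authors' deposited table (adjusted p = 9.85e-43); the panleukocyte gene Ptprc was not analysed here. Of 12 fibroblast and feeder cell markers 4 were measured, 2 lower and 2 higher, from -0.76 for Fbn1 to 0.42 for Cyr61 in the authors' deposited table, with a median of -0.05. Of 9 trophoblast markers 4 were measured, 1 lower and 1 higher, from -0.98 for Krt8 to 0.86 for Tfap2c in the authors' deposited table. The 10 pluripotency markers that define the labelled cell type were all measured, with means from 192 to 1566 CPM and fold changes from -0.17 for Dppa5a to 0.36 for Zfp42 in the authors' deposited table. Summed marker levels per genotype could not be given from a table with 1 mean per gene.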

How the data were processed

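Messenger RNA was measured in 6 libraries, 3 of Tex19.1-/- and 3 of Tex19.1+/- ES cells, made with a stranded TruSeq kit from TRIzol extracts and read from both ends, per the labels' protocols. Per the submitters' processing notes, the tools were edgeR, HTSeq 0.11.2, TopHat2 2.1.0 and Trim Galore 0.4.1, with the build mm10. How strands were counted, which annotation and low-count filter were used and which edgeR test was run is not given in the sources used here. Deposited values are, per the file headers and for each of 10128 genes, a p-value with its adjusted value (FDR), a log2 fold change and a mean expression in log2 CPM, reads relative to library size. All 4 were computed by the authors. The lowest mean is 3.52 CPM. The p-values of 8 genes are listed as 0, and Benjamini-Hochberg adjustment of the p-values gave the adjusted values to within 6.7e-05.

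No counts or values per library were used, so the authors' test stands in place of a new count model, depth is unknown, and no SD can be given. The standard error of a fold change was taken as its size divided by the normal deviate of its p-value (for p above 0.5, the median over 201 genes of like mean expression). These errors gave the 95% intervals and the tests of the values after a subtraction. Subtracted were the median of all genes, a trend on GC content and length of the longest annotated transcript, or the median of the 20 nearest genes. The calculation of the errors was checked on simulated fold changes whose p-values came from the same normal approximation. That check cannot show how well the approximation holds for the authors' p-values. Genes were called at an adjusted p under 0.05 and placed by symbol on GRCm38 with GENCODE M21, with 9587 matched, 137 more through older symbols and 404 not matched. Promoter windows came from RefSeq. Work was done with Python 3.11.15, pandas 2.3.3, scipy 1.17.1 and statsmodels 0.14.6. The lysosomal genes and all further lists were chosen with earlier results of these data known. All genes of the set are described. Of each further list the 4 with the smallest p-values are named, except 1 that is not reported here, and of marker lists the ends of the range; Mitf was named after its value was seen.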

Additional observations from a re-analysis of the deposited data

How the results depend on the processing

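Of the 45 lysosomal genes, 25 were lower and 2 higher in Tex19.1-/- cells, beside 26.5% and 25.2% of all genes. The count of lower genes ran from 17, with a log2 fold change of at least 0.25 required, to 28, after subtraction of a GC content and length trend or of the median of the 20 nearest genes. Of all genes tested, 13.7%, 26.2% and 26.6% were called lower in these settings, in that order. The count of higher genes was 1 under Bonferroni adjustment, which Lamp2 did not pass, 1 with at least 0.25 required, which Ctsa did not pass, and 3 relative to the nearest genes, where Atp6v1d passed. Shares called higher among all genes tested were 9.58%, 8.06% and 25.0% there, in that order. With genes under 16 CPM left out, Ctsc and Smpd1 were not tested and 23 of 40 genes were lower, beside 24.8% of all genes tested. Both direction and side of the threshold held for 42 of the 45 genes after subtraction of the overall median, for 42 with the trend and for 32 with the nearest genes. With the overall median, Grn turned to -0.0026 and Idua to -0.00055, neither called. Relative to the nearest genes 9 turned: Atp6v0a1 to -0.16 and Grn to -0.13, both then called lower, and, with no call before or after, Tfeb to 0.10, Atp6v0d1 to 0.061, Atp6v1c1 to -0.059, Atp6v1h to -0.015, Ids to -0.090, Lipa to -0.031 and Cd63 to -0.00011. Atp6v1a lost its call there (adjusted p = 0.136). The cause was not tested. Proteases called lower numbered 5 to 7 and glycosidases 6 to 7 over these settings. No paired analysis was possible because the table holds no values per library, and leaving out each replicate, DESeq2 and other count models were not run for the same reason. Values implied by a normal approximation of the p-values are approximate, and the number of reads behind each gene is unknown.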
